A study of Mus musculus with 8 samples.

Results

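The core genes of the circadian clock were examined in messages bound to polyribosomes in the mouse brain. The 10 genes were Per1, Per2, Per3, Cry1, Cry2, Clock, Arntl (whose protein is BMAL1), Nr1d1, Nr1d2 and Dbp. They were chosen by name, not by a measured value, though with earlier results of these data known. All 10 were found among the 21643 gene symbols of the count table. Each gene was represented by its transcript with the highest count summed over the libraries. Only Per1 had 2 transcripts in the table. Their totals were 3443 and 3440 counts and they differed by at most 2 counts in any library, so 1 of them was used. All 10 genes passed the low-count filter in every comparison.

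The tissue was prefrontal (labelled frontal) cortex or hippocampus of C57Bl/6 mice aged 7 to 9 weeks. Conditioned mice had received contextual fear conditioning, a training that pairs a chamber with foot shock, and control mice saw the context without it (context alone). Tissue was taken 1 h or 6 h after the session, and each of the 8 combinations of tissue, training and time was 1 library without a replicate. The labels do not say how many animals entered a library or whether both tissues came from the same animals, and the protocol describes the prefrontal cortex alone, so a p-value here covers only the spread among these libraries, which may be technical. The sources used here do not give the hour of the day of the sessions, so time after the session and time of day cannot be told apart. Polyribosomal RNA was measured without total RNA, so the amount of a message and its loading with ribosomes cannot be told apart. In tissue of mixed cell types, fewer cells of a type and less RNA per cell cannot be told apart either.

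The clock is a loop of transcription and translation that runs in nearly every cell. CLOCK and BMAL1 bind together to E-box sequences and switch on the Per, Cry and Nr1d genes and Dbp. PER and CRY proteins gather and block CLOCK and BMAL1, and the nuclear receptors encoded by Nr1d1 and Nr1d2 (REV-ERB alpha and beta) silence Arntl through RRE sequences, while DBP acts on D-box sequences of output genes and of Per3. Cortex and hippocampus hold such clocks, which follow the pacemaker in the suprachiasmatic nucleus, and Per1 is known in addition as a gene that neuronal activity and glucocorticoids induce.

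The libraries held 2370973 to 5296986 counts. The conditioned 1 h libraries, one labelled cortex and one hippocampus, agreed within sampling noise: over 11599 genes their differences had a variance of 1.06 times counting noise and 0 genes passed, where the next closest libraries had a ratio of 4.85. They were counted as 1 sample, which leaves 7 samples, 3 at 1 h and 4 at 6 h. Summed markers of hippocampal neurons (8 genes) stood at 81.0 to 99.5 CPM (counts scaled to library size) in the other 3 cortex libraries, at 571.0 to 1109 CPM in the other 3 hippocampus libraries, and at 312.2 and 319.7 CPM in this pair. The hippocampus control 6 h library, the smallest, stood apart: its scaling factor (TMM, which corrects for a few abundant messages) was 0.732 where the others had 0.973 to 1.149, and Aldoc, the highest of 6 astrocyte markers, had 1474 CPM in it and 389.7 to 576.0 CPM elsewhere. The other 5 astrocyte markers summed to 274.7 CPM in it, within the 162.5 to 323.2 CPM of the rest. Markers of suprachiasmatic neurons (6 genes) summed to 1.86 to 12.7 CPM, with 1 gene at 0 in all libraries. Most of this was Vip (1.86 to 11.98 CPM), and the other 5 summed to 0.0 to 0.885 CPM.

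Upstream sequences of the clock genes are shown to set the letters that clock proteins bind beside the values below. The RefSeq promoter table (GRCm38.p6) held 13 windows for 9 of the 10 genes, and the 250 bases before each start were searched on both strands. The E-box CACGTG was found in 6.02% of all 32851 windows and in those of Per1 (166 bases before the start) and Cry1 (60). The related E'-box CACGTT was found in 3.85% of all windows and upstream of Cry1 (79), Cry2 (166) and Nr1d1 (28). The D-box, TTATGTAA or TTACGTAA, was found in 0.931% of all windows and in that of Per3, at 205 and 158 bases before the start. The letters AGGTCA, only a part of an RRE, were found in 14.0% of all windows and upstream of Per1 (137), Clock (119) and Nr1d2 (77). The rest of an RRE was not searched for. Per1 and Clock had these matches in 1 window each, and their other windows held no E-box, E'-box, D-box or AGGTCA. The cyclic AMP response element TGACGTCA was in 1.55% of all windows and in 0 of the 13, and its first letters TGACG in any context in 17.8% of all windows and in those of 3 clock genes. A match describes letters in a window and is not a binding site, and a window without a match says nothing of the factor. The windows printed are those of the 3 genes that passed the test for time, Per1, Clock and Nr1d2, and those of Cry1 and Per3, which hold 2 matches each. Per1 lies on the plus strand (chr11:69098699-69098948, 1 of its 2 windows), Clock (chr5:76303503-76303752, the window of the start farthest along the gene among 3), Nr1d2 (chr14:18239107-18239356), Cry1 (chr10:85185055-85185304) and Per3 (chr4:151044666-151044915) on the minus strand. They read 5′ to 3′ along the gene, and capitals mark an E-box, E'-box, D-box or AGGTCA on either strand.
Per1: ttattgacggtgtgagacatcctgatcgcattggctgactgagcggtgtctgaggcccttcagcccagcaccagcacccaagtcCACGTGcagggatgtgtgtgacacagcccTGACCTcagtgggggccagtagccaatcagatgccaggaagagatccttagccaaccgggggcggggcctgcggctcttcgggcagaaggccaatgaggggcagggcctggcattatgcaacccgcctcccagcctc
Clock: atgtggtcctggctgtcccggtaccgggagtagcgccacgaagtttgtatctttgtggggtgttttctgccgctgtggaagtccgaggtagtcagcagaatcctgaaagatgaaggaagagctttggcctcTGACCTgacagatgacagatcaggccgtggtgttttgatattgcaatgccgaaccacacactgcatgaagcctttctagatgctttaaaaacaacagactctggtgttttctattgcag
Nr1d2: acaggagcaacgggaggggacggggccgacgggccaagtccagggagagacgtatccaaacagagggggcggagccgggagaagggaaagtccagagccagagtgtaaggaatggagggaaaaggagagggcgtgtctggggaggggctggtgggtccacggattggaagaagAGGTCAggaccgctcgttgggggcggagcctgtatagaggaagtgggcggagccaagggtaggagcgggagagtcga
Cry1: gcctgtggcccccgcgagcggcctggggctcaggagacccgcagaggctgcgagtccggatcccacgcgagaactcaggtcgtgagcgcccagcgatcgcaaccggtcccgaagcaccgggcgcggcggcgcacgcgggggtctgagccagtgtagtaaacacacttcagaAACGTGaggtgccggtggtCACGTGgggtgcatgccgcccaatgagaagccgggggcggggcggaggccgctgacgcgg
Per3: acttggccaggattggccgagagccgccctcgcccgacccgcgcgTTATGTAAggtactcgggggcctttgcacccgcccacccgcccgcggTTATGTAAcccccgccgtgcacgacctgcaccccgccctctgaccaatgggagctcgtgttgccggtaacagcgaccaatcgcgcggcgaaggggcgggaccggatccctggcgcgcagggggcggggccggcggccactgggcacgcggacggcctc

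Per kilobase of transcript, Nr1d1 was the most abundant of the clock messages and Per3 the least. Nr1d1 stood at 94.9 ± 33.0 CPM per kilobase (mean ± SD, n = 7 samples over tissues, times and training), Cry2 at 37.3 ± 11.8 and Per1, next in order, ranged from 7.77 to 39.6 CPM per kilobase. Dbp, Clock and Nr1d2 had means between 11.4 and 11.5 CPM per kilobase. Arntl followed at 5.66 ± 1.91, Per2 at 4.30 ± 1.14, Cry1 at 3.90 ± 1.39 and Per3 at 2.58 ± 0.692 CPM per kilobase. Each gene's range over the 7 samples overlapped that of its neighbours in this order. Nr1d1, Cry2, Per2, Cry1 and Per3 held the same places at both times, and the places of the other genes changed. At 6 h (n = 4) Clock (15.01 ± 2.47) and Nr1d2 (13.9 ± 2.13) had higher means per kilobase than Per1 (12.5 ± 3.38), by less than the SD of Per1. These levels were not corrected for GC content, with which messages in general differed between the times, as set out further on. At 1 h (n = 3) Per1 had 29.96 ± 12.2 CPM per kilobase, and Clock (6.70 ± 0.509) lay just below Arntl (6.92 ± 2.30). Per1 varied most, with 5.10 times as much CPM in its highest as in its lowest sample, followed by Dbp (4.49) and Nr1d1 (4.21), and Per2 varied least (1.78). The lowest sample of Per1, Per3, Cry1, Cry2, Arntl, Nr1d1 and Dbp was the hippocampus control 6 h library. The plot of levels by library shows the 10 genes side by side.

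**Figure D1:**
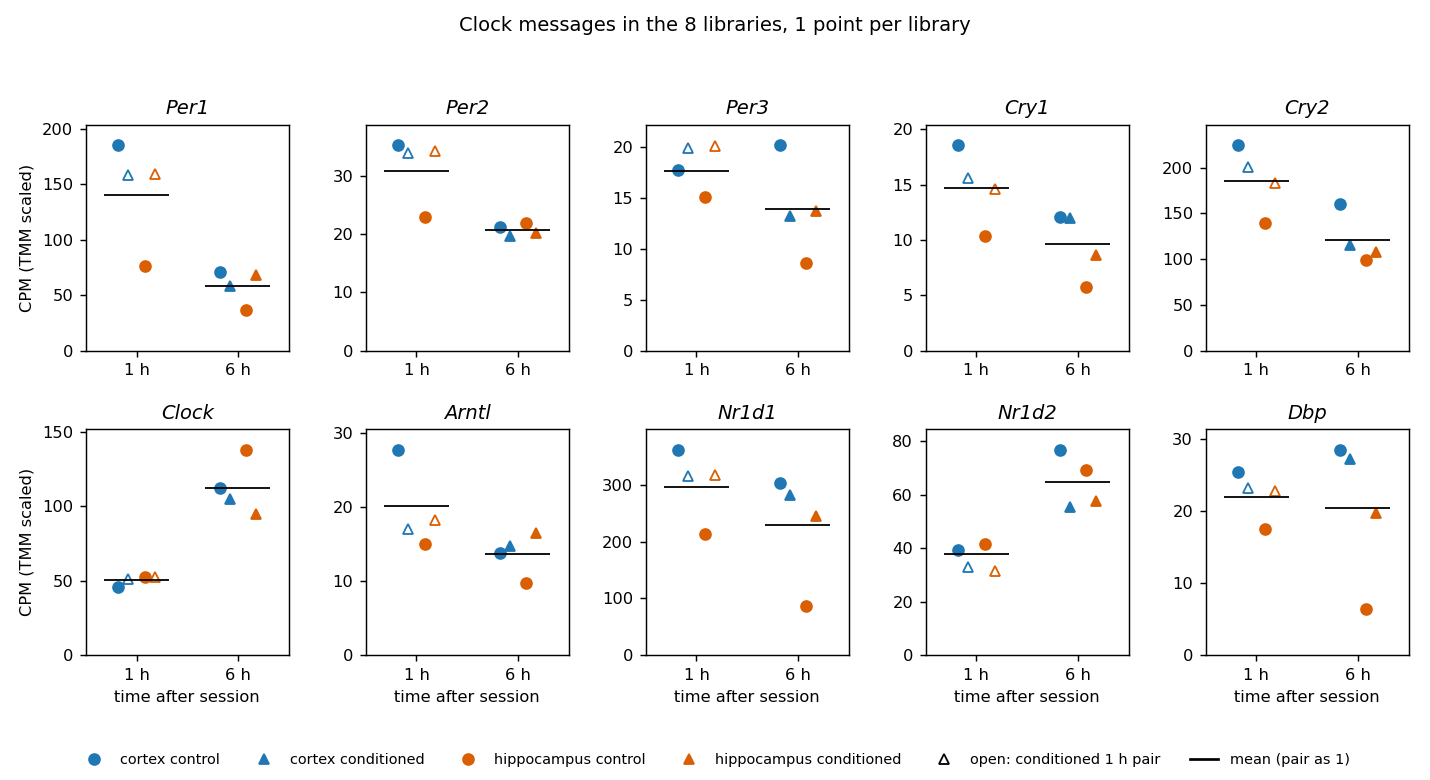
TMM-scaled CPM of the 10 clock genes (vertical axes, linear and starting at 0, each with its own scale) in the 8 libraries at 1 h and 6 h (horizontal axis). Circles are control and triangles conditioned libraries, blue is cortex and orange hippocampus, open triangles are the pair that agrees within sampling noise, and bars are means with the pair as 1 sample; Per1 and Per2 lie lower and Clock and Nr1d2 higher in all 6 h samples than in all 1 h samples.

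From 1 h to 6 h, Clock and Nr1d2 rose and Per1 fell, and the other 7 clock genes did not pass the test. Clock rose by 1.16, Nr1d2 rose by 0.82 and Per1 fell by 1.27 on the log2 scale. These 3 calls were lost once the trend of all messages with GC content and length was removed, as set out further on. In the same fit 20.5% of all 16378 transcripts tested were higher at 6 h and 17.2% lower (edgeR quasi-likelihood test, Benjamini-Hochberg adjusted p under 0.05), against 2 and 1 of the 10 clock genes. Without the cortex control 1 h library no clock gene and 0 of all transcripts passed, without the hippocampus control 6 h library 5 clock genes passed (Cry2 and Per2 in addition) and without the hippocampus conditioned 6 h library 6 (Arntl, Cry2 and Nr1d1 in addition). The median log2 change was -0.54 over the clock genes and -0.03 over all transcripts tested. Every 6 h sample lay above every 1 h sample for 2 clock genes, where this held for 24.7% of all transcripts, and below for 2, where it held for 20.7%. Of 3 markers of neurons in general, Snap25 alone stood at 5953 to 8395 CPM at 1 h and at 15100 to 26650 CPM at 6 h, and the other two summed to 879.8 to 993.2 CPM and to 1415 to 1733 CPM. The part of this shift in the changes of clock genes was not tested.

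Among the repressors of the loop, Per1 showed the widest difference. It stood at 185.1 CPM in the cortex control and 75.9 CPM in the hippocampus control at 1 h, and at 158.4 and 159.1 CPM in the conditioned pair. At 6 h it stood at 71.2 CPM (cortex control), 58.6 CPM (cortex conditioned), 36.3 CPM (hippocampus control) and 68.1 CPM (hippocampus conditioned). All 6 h samples lay below all 1 h samples, although the hippocampus control at 1 h was close to the highest values at 6 h. The mean went from 139.9 ± 57.0 CPM (SD, n = 3) to 58.6 ± 15.8 CPM (n = 4), a log2 change of -1.27 (SE 0.29, edgeR adjusted p = 0.0115). Within the controls alone, the ratio of 6 h to 1 h was 0.385 in cortex (95% counting interval 0.339 to 0.437) and 0.478 in hippocampus (0.359 to 0.627). Without the cortex control 1 h library the adjusted p of Per1 was 0.0904, with a log2 change of -1.06.

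Per2, a period gene that light induces in the pacemaker, had 23.0 to 35.3 CPM at 1 h and 19.8 to 21.9 CPM at 6 h. The ranges did not overlap, and its 4 libraries at 6 h differed by little (20.8 ± 0.967 CPM against 30.8 ± 6.78 CPM at 1 h). Its log2 change of -0.59 (SE 0.26) did not pass (edgeR adjusted p = 0.0924). In the hippocampus controls it stood at 23.0 CPM at 1 h and 21.9 CPM at 6 h, a ratio of 0.951 whose counting interval of 0.638 to 1.39 spans 1, and in the cortex controls the ratio was 0.604 (0.466 to 0.782). Per3, a period gene whose loss leaves the clock nearly intact, had 15.05 to 20.03 CPM at 1 h and 8.64 to 20.2 CPM at 6 h (log2 change -0.37, SE 0.30, edgeR adjusted p = 0.334). Its levels overlapped between the times.

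The cryptochromes, the main repressors of CLOCK and BMAL1, also had lower means at 6 h without passing. Cry2 went from 185.5 ± 42.7 to 120.5 ± 27.3 CPM, a log2 change of -0.62 (SE 0.23, edgeR adjusted p = 0.0555). It missed the threshold by little and was under it with upper-quartile factors (0.0297), with limma-voom (0.0468) and with the conditioned pair entered as 2 libraries (0.0295). With 1 library other than the pair left out, its edgeR adjusted p ranged from 0.0306 to 0.22, and without the pair it was 0.328. Without the trend with GC content and length, set out further on, Cry2 stood at -0.00 (0.993). Transcripts of like GC content had a median change of -0.75 (quartiles -1.12 to -0.35). Its ratio of 6 h to 1 h was 0.713 (0.648 to 0.785) among the cortex controls and 0.708 (0.595 to 0.840) among the hippocampus controls. Cry1 went from 14.7 ± 4.10 to 9.62 ± 3.05 CPM (log2 change -0.66, SE 0.28, edgeR adjusted p = 0.0845), on only 10 counts in the smallest library, hippocampus control 6 h.

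Of the activating complex, Clock rose and Arntl did not pass. Clock stood between 45.8 and 52.7 CPM in all 1 h libraries. At 6 h it stood at 112.3 CPM (cortex control), 104.5 CPM (cortex conditioned), 137.6 CPM (hippocampus control) and 94.4 CPM (hippocampus conditioned). No 6 h library came near the 1 h range, and the log2 change was 1.16 (SE 0.24, edgeR adjusted p = 0.00888). The controls gave ratios of 2.46 (2.07 to 2.92) in cortex and 2.613 (2.18 to 3.14) in hippocampus. Arntl, the partner of Clock, had 27.7 CPM in the cortex control, 15.05 CPM in the hippocampus control and 17.0 and 18.2 CPM in the conditioned pair at 1 h. At 6 h it had 13.8 and 14.7 CPM in cortex and 9.79 and 16.5 CPM in hippocampus, control before conditioned. The times overlapped, and its log2 change of -0.56 (SE 0.31) did not pass (edgeR adjusted p = 0.165). Leaving out the cortex control 1 h library, in which it was highest, moved it to -0.28 and Clock to 1.08, which then did not pass (adjusted p = 0.0797).

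Of the REV-ERB receptors in the second loop, Nr1d2 rose and Nr1d1 did not pass. Nr1d2 stood at 39.2 CPM in the cortex control, 41.4 CPM in the hippocampus control and 33.1 and 31.4 CPM in the conditioned pair at 1 h. At 6 h it stood at 76.6 CPM (cortex control), 55.5 CPM (cortex conditioned), 69.1 CPM (hippocampus control) and 57.7 CPM (hippocampus conditioned). Every 6 h library was above every 1 h library, with a log2 change of 0.82 (SE 0.23, edgeR adjusted p = 0.0206). It did not pass without the cortex control 1 h, hippocampus control 1 h, cortex control 6 h or cortex conditioned 6 h library (adjusted p from 0.0656 to 0.119). Without the conditioned 1 h pair it did not pass either (0.83, adjusted p = 0.115), which left Clock (1.32, 0.0214) and Per1 (-1.26, 0.0368). Nr1d1, the most abundant clock message, had 361.1 CPM in the cortex control, 212.9 CPM in the hippocampus control and 316.1 and 316.5 CPM in the conditioned pair at 1 h. At 6 h it had 303.2 CPM (cortex control), 282.6 CPM (cortex conditioned), 85.8 CPM (hippocampus control) and 245.8 CPM (hippocampus conditioned). The 6 h range thus reached from far below the 1 h range into it, and the log2 change of -0.53 (SE 0.30) did not pass (edgeR adjusted p = 0.182). Without the hippocampus control 6 h library it was -0.21.

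Dbp, an output of the clock and a transcription factor of the PAR bZIP family, did not pass as fitted. It had 25.4 CPM (cortex control), 17.5 CPM (hippocampus control) and 23.1 and 22.8 CPM (conditioned pair) at 1 h. At 6 h it had 28.4 CPM (cortex control), 27.2 CPM (cortex conditioned), 19.8 CPM (hippocampus conditioned) and 6.33 CPM (hippocampus control), the last on 11 counts. Its log2 change was -0.24 (SE 0.33, edgeR adjusted p = 0.575), and 0.07 without the hippocampus control 6 h library. The exons of Dbp share 539 bases (18.0%) with Sphk2 and those of Nr1d1 share 263 bases (8.5%) with Thra, each on the opposite strand (GENCODE M21, GRCm38). The sources used here do not say whether counting used strand, so reads of these partners cannot be told apart there. Sphk2, a sphingosine kinase, fell from 62.9 ± 2.30 to 27.6 ± 12.6 CPM (log2 change -1.33, edgeR adjusted p = 0.0201), and Thra, a thyroid hormone receptor, went from 269.0 ± 64.3 to 154.9 ± 61.3 CPM (-0.82, adjusted p = 0.0676).

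The time differences of the clock genes were set beside base composition, with which messages in general differed between the times. Across 11833 genes the log2 change between the control libraries, 6 h over 1 h, had a rank correlation with transcript GC content of -0.716 in cortex and -0.698 in hippocampus, and GC content and length accounted for 51.1% and 53.3% of its variance (genes are not independent replicates). Clock and Nr1d2, the clock genes that rose, had the lowest GC content of the 10, 42.1% and 41.8%. Dbp (61.6%) and Per1 (59.4%) had the highest. Over the 10 genes the log2 change had a Pearson correlation with GC content of -0.78 and a Spearman correlation of -0.41. Transcripts within 1 percentage point of the GC content of Clock had a median log2 change of 0.95 (quartiles 0.56 to 1.34), where Clock had 1.16, and those near Nr1d2 had 1.01 (0.62 to 1.41), where Nr1d2 had 0.82. Transcripts near Per1 had a median of -1.08 (-1.40 to -0.80), where Per1 had -1.27. All 3 genes that passed thus lay between the quartiles of transcripts of like composition. Arntl at -0.56 lay below the lower quartile of its neighbours (0.26, -0.11 to 0.70) and Cry1 at -0.66 also did (-0.16, -0.59 to 0.24). Dbp at -0.24 lay above the upper quartile of its neighbours (-1.09, -1.47 to -0.79), on 403 transcripts, and Nr1d1 was just inside (-0.53 beside -0.88, -1.22 to -0.51).

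**Figure D2:**
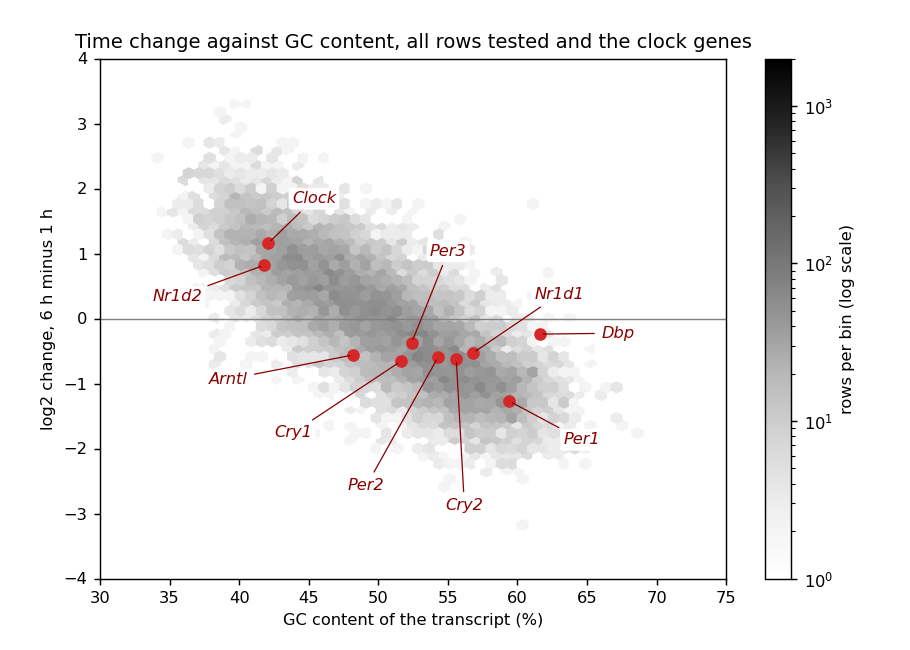
Log2 change from 1 h to 6 h (vertical axis) against the GC content of the transcript in percent (horizontal axis) for all transcripts tested (grey bins, log colour scale) and the 10 clock genes (red). Clock and Nr1d2 sit inside the cloud at low GC content and Per1 at high GC content, and Dbp lies at its upper edge.

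With each library's trend with GC content and length removed, 1 clock gene passed, and it was none of the 3 above. Dbp was higher at 6 h, with a log2 change of 0.95 (SE 0.23, edgeR adjusted p = 0.0273), where 6.49% of 15896 transcripts were higher and 4.41% lower. Leaving out the hippocampus control 6 h library as well kept Dbp past the threshold (1.01, adjusted p = 0.00594), and leaving out the conditioned pair did not (0.99, adjusted p = 0.13). The CPM of Dbp showed no such rise, and the value stands relative to the fall of other transcripts of its GC content. Per1 stood at -0.34 (adjusted p = 0.311), Clock at -0.01 (0.979) and Nr1d2 at -0.25 (0.478) by the same test. Arntl had the lowest value, -0.86 (SE 0.28, adjusted p = 0.0683), followed by Cry1 at -0.55 (0.151). Cry2 at -0.00, Per2 at -0.21, Per3 at -0.27 and Nr1d1 at 0.25 had adjusted p of 0.395 or more. Over the 10 genes the correlation with GC content was then 0.47 by Pearson and by Spearman, and the median was -0.23, beside -0.05 over all transcripts. Over all alternatives run, the adjusted p of the time change ranged from 0.000764 to 0.866 for Per1, from 0.000661 to 0.981 for Clock, from 0.00768 to 0.937 for Nr1d2, from 0.0295 to 0.993 for Cry2 and from 0.00594 to 0.892 for Dbp.

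**Figure D3:**
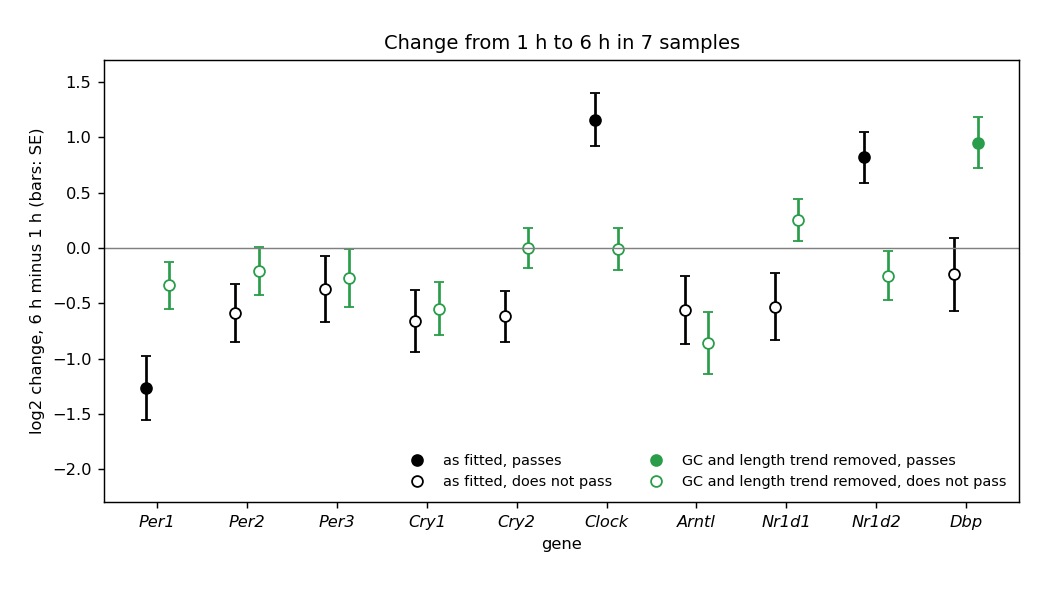
Log2 change from 1 h to 6 h (vertical axis, bars are SE) of each clock gene as fitted in 7 samples (black) and with the GC and length trend of each library removed (green), filled where the adjusted p was under 0.05. Per1, Clock and Nr1d2 are filled in black and Dbp alone in green.

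The wider clock was followed in 35 further genes, of which 32 could be tested. As fitted, 12 were higher at 6 h and 4 lower, beside 20.5% and 17.2% of all transcripts, with a median log2 change of 0.39. Without the GC and length trend 2 were higher and 3 lower, beside 6.49% and 4.41%, with a median of -0.10, so most of the calls below were not kept. Of 7 tested paralogs and second-loop genes, 2 were higher and 2 lower as fitted, and 0 and 1 without the trend. Rora, the activator that competes with REV-ERB for RRE sequences, rose by 1.21 as fitted (edgeR adjusted p = 0.021) and stood at -0.19 without the trend (0.585). Nfil3, the repressor that opposes DBP at D-boxes, fell by 1.26 as fitted (0.0167) and stood at -0.69 without the trend (0.123). Of the PAR bZIP partners of Dbp, Tef fell by 1.15 as fitted (0.0229; without the trend -0.88, 0.0655) and Hlf at 0.69 did not pass (0.0509). Of 18 tested kinases, ligases and other modifiers, 8 were higher and 1 lower as fitted, and 2 and 2 without the trend. Ncor1, the corepressor that REV-ERB recruits, passed both ways (1.32 as fitted, adjusted p = 0.013, and 0.96 without the trend, 0.0282). Others with a small p as fitted did not pass without the trend. Prkaa2, a subunit of the energy-sensing kinase AMPK that marks CRY proteins for loss, went from 1.27 to -0.07 (adjusted p = 0.84). Gsk3b, a kinase of several clock proteins, went from 1.15 to 0.39 (0.198), Csnk1a1, a casein kinase, from 1.17 to 0.25 (0.379), and Usp7, a deubiquitinase of CRY proteins, from 1.19 to 0.59 (0.0931). Of 5 output and temperature-linked genes, 2 were higher as fitted and 0 without the trend. Nampt, the enzyme of NAD synthesis, stood at 1.68 as fitted (0.0064) and at 0.39 without the trend (0.208). Those that passed without the trend included Usp2 (1.06), Bhlhe40 (-0.96) and Fbxw11 (-1.06) beside Ncor1. Of these, Hlf, Tef, Usp2, Bhlhe40 and Fbxw11 were named after their values were seen.

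Whether the change with time differed between the tissues was tested in the 6 libraries without the conditioned pair. Training was left out of this fit, so the control and the conditioned library of a tissue at 6 h acted as replicates. The 1 h libraries in it were controls alone. Time is thus partly mixed with training there, and the standard errors include any difference with training. No clock gene and 0.0% of 16824 transcripts passed, with 272 at an unadjusted p under 0.05 and 0 passing with DESeq2 or limma-voom as well. The differences, hippocampus change minus cortex change, went from -0.45 (Dbp, SE 0.92) to 1.01 (Per1, SE 0.72), each with an edgeR adjusted p of 1.0. The standard errors of 0.60 to 0.92 show how wide these estimates are, and without the hippocampus conditioned 6 h library Dbp and Nr1d1 passed together with 2822 transcripts. Leaving out that library makes the hippocampus control 6 h library, which stood apart, the only hippocampus library at 6 h, with 1 residual degree of freedom. By counting error alone, Clock and Nr1d2 were higher and Per1, Cry2 and Nr1d1 lower at 6 h in the controls of both tissues. Per2, Cry1 and Arntl were lower in cortex with intervals that span 1 in hippocampus, and Dbp was lower in hippocampus (ratio 0.362, 0.174 to 0.684) with an interval that spans 1 in cortex (1.12, 0.862 to 1.46). By the same rule 31.6% of the 16378 transcripts were higher and 29.2% lower in cortex, and 33.6% and 31.8% in hippocampus, beside 2 and 6 clock genes in cortex and 2 and 4 in hippocampus. Low counts widen an interval, so these shares depend on how many counts a transcript has.

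Between the tissues no clock gene passed the test. In the 6 libraries without the pair (3 of each tissue) 9 of 10 clock genes had a negative log2 difference, hippocampus minus cortex, with a median of -0.47 where that of all transcripts was 0.00. None of the 10 passed, beside 3.72% of 16123 transcripts, and DESeq2 and limma-voom passed none either, with 2 of the 10 at an unadjusted p under 0.05 in edgeR. Dbp differed by -0.96 (SE 0.39, edgeR adjusted p = 0.256), Nr1d1 by -0.92 (SE 0.35, 0.193), Cry1 by -0.78 (SE 0.40, 0.428) and Per1 by -0.69 (SE 0.35, 0.415). Clock differed by 0.11 (SE 0.31), Nr1d2 by -0.01 (SE 0.32) and Per2 by -0.20, and the sign of each turned with 1 library left out. Per2 stood at 0.03 without either 1 h control, Nr1d2 at 0.05 without the cortex control 6 h and 0.03 without the hippocampus control 6 h library, and Clock at -0.01 without the latter. Without the hippocampus control 6 h library Nr1d1 stood at -0.51 and Dbp at -0.53. With the GC and length trend removed, 10 of 10 were negative, with a median of -0.37 beside 0.01, and none passed.

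The tissues were also compared library by library, within counting error alone. At 1 h the hippocampus control was below the cortex control beyond counting error for 7 clock genes and above it for 0, where 21.8% of all 16378 transcripts were below and 22.1% above by the same rule. At 6 h the hippocampus control, the library that stood apart, was below for 6 and above for 1, Clock (ratio 1.22, 1.05 to 1.43). Of all transcripts 26.4% were below and 28.0% above. Among the conditioned 6 h libraries hippocampus was below cortex for 2, Nr1d1 (0.870, 0.803 to 0.942) and Dbp (0.728, 0.549 to 0.960). The intervals of the other 8 spanned 1, beside 21.0% of all transcripts below and 21.8% above. Per1 was 0.410 times as high in hippocampus as in cortex in the 1 h controls (0.359 to 0.467), 0.509 times in the 6 h controls (0.384 to 0.667) and 1.16 times in the conditioned 6 h libraries (0.987 to 1.37). These ratios compare single libraries, and whether they differ between states was not tested. Summed markers of cortical neurons (8 genes) were 1332 to 1767 CPM in the 3 cortex libraries and 306.5 to 673.2 CPM in the 3 hippocampus libraries. Without Mef2c, the highest, they were 796.0 to 847.7 CPM and 241.2 to 429.6 CPM. Fezf2 alone went the other way, at 56.5 to 68.7 CPM in cortex and 64.4 to 116.3 CPM in hippocampus, and was higher in hippocampus in each state. The part of cell composition in the clock values was not tested.

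Fear conditioning was compared with context alone at 6 h, the time at which each tissue had 1 library of either kind apart from the pair. No clock gene and 0.0% of 16123 transcripts passed, with 666 at an unadjusted p under 0.05 in edgeR and 0 passing with DESeq2 or limma-voom. Of the clock genes 5 had a positive and 5 a negative log2 difference, conditioned minus control, and edgeR adjusted p ranged from 0.911 to 0.983. The widest were Nr1d1 (0.67, SE 0.43), Dbp (0.58, SE 0.48) and Arntl (0.44, SE 0.47). Without the cortex control 6 h library Nr1d1 stood at 1.39 and passed (adjusted p = 0.0115), together with 2067 transcripts, where the other alternatives gave 0.458 to 1.0. Without the hippocampus control 6 h library it stood at 0.02. Over both times, with the conditioned pair counted as 1 sample, 0.0% of 16378 transcripts passed (296 at an unadjusted p under 0.05, and 0 with DESeq2 or limma-voom). Clock genes then had adjusted p of 0.943 to 0.981, with Nr1d1 at 0.48 (SE 0.31), Per1 at 0.37 (SE 0.29) and Nr1d2 at -0.35 (SE 0.22).

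Conditioning at 6 h was then taken in each tissue by itself, from 1 pair of libraries. In cortex Per1, Per3, Cry2 and Nr1d2 were lower in the conditioned library beyond counting error and the intervals of the other 6 spanned 1. Of all 16378 transcripts 10.4% were lower and 12% higher by the same rule. Cry2 had a ratio of 0.719 (0.646 to 0.800), Nr1d2 of 0.724 (0.620 to 0.845), Per3 of 0.654 (0.475 to 0.896) and Per1 of 0.822 (0.704 to 0.960). Summed markers of striatal projection neurons (7 genes) also differed between these cortex libraries, at 297.9 CPM in the control and 178.4 CPM in the conditioned library. Without Ppp1r1b they summed to 145.4 and 97.2 CPM. The part of cell composition in the cortex ratios was not tested. In hippocampus Nr1d1, Dbp and Per1 were higher and Clock lower, 3 and 1 of the 10, where 25.5% of all transcripts were higher and 26.9% lower. Nr1d1 had a ratio of 2.86 (2.41 to 3.42), Dbp of 3.12 (1.66 to 6.49), Per1 of 1.88 (1.43 to 2.51) and Clock of 0.686 (0.583 to 0.808). All hippocampal ratios rest on the control library that stood apart, in which Nr1d1 (85.8 CPM), Dbp (6.33 CPM) and Per1 (36.3 CPM) were at their lowest and Clock (137.6 CPM) at its highest of all libraries. The ratios in both tissues were not corrected for GC content, which was 61.6% for Dbp, 59.4% for Per1, 56.8% for Nr1d1 and 42.1% for Clock. In the 6 h fit over both tissues, removing the GC and length trend moved Nr1d1 from 0.67 to 0.24 and Dbp from 0.58 to 0.04. Per1 went from 0.36 to -0.20 and Clock from -0.32 to 0.08. The part of GC content in the single-tissue ratios was not tested. Intervals cover counting error only, and reads amplified by PCR without molecular identifiers are not independent molecules.

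**Figure D4:**
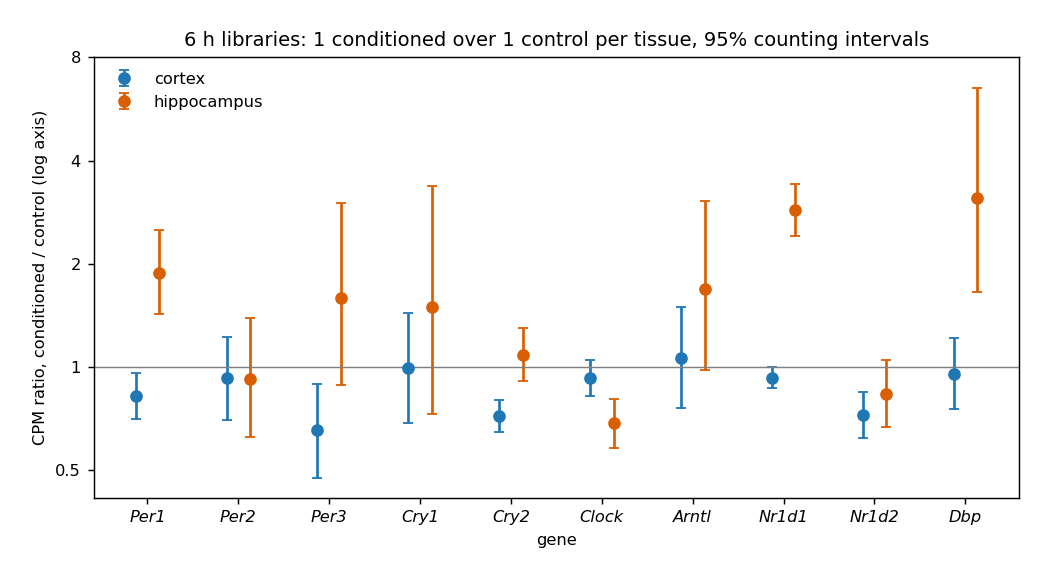
Ratio of CPM in the conditioned to the control library at 6 h (vertical log axis) for each clock gene in cortex (blue) and hippocampus (orange), with 95% counting intervals from 1 library of each kind. Cortex ratios lie at or below 1.07, and in hippocampus those of Per1, Nr1d1 and Dbp lie above 1 and that of Clock below.

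The clock genes were also set beside one another and beside all well-measured genes over the 7 samples. Nr1d1 and Dbp had a Pearson correlation of log2 CPM of 0.97, Per1 and Cry2 one of 0.93, and Clock and Nr1d2 one of 0.92, and Per1 ran opposite to Clock at -0.87. Among 6317 genes, those most like Per1 were Bhlhe40 (0.993), Mapre3 (0.992) and Mybbp1a (0.992). Those most like Dbp were Moap1 (0.992), Inka2 (0.992) and Kcnj9 (0.990), and those most like Arntl were Dpysl2 (0.979), Kctd3 (0.978) and Mapk8ip3 (0.976). The points share the GC trend between the times and the hippocampus control 6 h library, so these values describe the 7 samples only.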

How the data were processed

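Polyribosome-associated RNA was sequenced in 8 libraries. Ribosomal RNA was taken out of 200 ng, and cDNA from random and poly A primers was amplified (SPIA, then PCR), per the labels' protocols. The values deposited by the authors are raw counts for each RefSeq transcript, in whole numbers. The submitters' processing notes name CASAVA 1.7, TopHat 1.3.1, edgeR, limma 3.12.3 and build mm9, with no role stated. The sources used here name no counting program and do not say whether it used strand. The table held 28157 rows, and 97.9% were matched to a symbol. GC content, length, exon overlaps and promoter windows came from GRCm38, and no coordinates were carried over from mm9.

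Counts were tested in R 4.3.3 with edgeR 4.0.16 (quasi-likelihood test, robust, TMM factors, its default low-count filter, Benjamini-Hochberg adjustment over all rows, threshold 0.05), with DESeq2 1.42.0 and limma-voom 3.58.1 as alternatives. SE is the log2 change divided by the root of F. Time, and training over both times, were fitted in 7 samples (the conditioned 1 h pair summed, tissue coded midway, 3 residual degrees of freedom). Tissue, training at 6 h and the interaction were fitted in the 6 other libraries (2 residual degrees of freedom). The interaction fit left training out. For the GC alternative, natural splines with 5 degrees of freedom each in GC content and length were taken off each library's log2 deviations. CPM use TMM factors. Ratios of single libraries carry exact 95% intervals for counting error. Scripts were tested on simulated data. Likeness was ranked by Pearson correlation of log2 CPM (prior count 2) among genes averaging at least 4 on that scale. Of the other clock genes, the up to 8 with the smallest p among those passing for time were named. The genes and lists were chosen with earlier results of these data known. The value of 1 gene of these lists is not reported here.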

Additional observations from a re-analysis of the deposited data

Results flagged for a closer look

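Per1 at 6 h went opposite ways in the tissues: the conditioned library had 0.822 times the CPM of the control in cortex and 1.88 times in hippocampus, with both counting intervals clear of 1. Each ratio comes from 1 library of a kind, so the difference was not tested at the level of samples. The hippocampal value rests on the control 6 h library that stood apart. Among the 4 controls alone, Per2 in the cortex control 1 h library (35.3 CPM) was farther from the other 3 than Dixon's limit allows (gap over range 0.878, limit 0.829). The conditioned 1 h pair, not among these controls, had 33.98 and 34.27 CPM, close to that value. Dixon's limit is meant for samples of 1 group, of which chance flags about 1 in 20. The 4 controls differ in tissue and time, so they are not such a group.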

How the results depend on the processing

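No paired analysis was possible because each combination of tissue, training and time has 1 library and the labels give no replicate numbers. Of the clock genes that passed for time, 3 as fitted, 5 passed with upper-quartile factors, which shifted the median of all transcripts by -0.12 (2794 higher, 3284 lower), 0 with both the pair and the smallest library (hippocampus control 6 h) left out, and 0 to 6 with 1 library left out. With the GC and length trend removed 1 passed, also with the smallest library left out, and 0 with the pair left out; these last 2 were added after seeing the data. Leaving out 1 library gave 0 to 1 passing genes for training at 6 h and 0 to 2 for the interaction, which could not be fitted without either 1 h control. Counts for tissue and for training over both times stayed at 0 throughout. For time, directions turned without the trend for Clock (-0.01), Nr1d1 (0.25), Nr1d2 (-0.25) and Dbp (0.95). They turned without the trend and the smallest library for Nr1d1 (0.40), Nr1d2 (-0.03) and Dbp (1.01), and without the trend and the pair for Per2 (0.02), Cry2 (0.25), Nr1d1 (0.23), Nr1d2 (-0.34) and Dbp (0.99). Without the pair and that library Per3 stood at 0.26 and Dbp at 0.19, and with 1 library left out Dbp ranged from -0.56 to 0.07. For tissue, Clock turned without the trend (-0.17), and with 1 library left out Per2 ranged from -0.33 to 0.03, Clock from -0.01 to 0.24 and Nr1d2 from -0.05 to 0.05. For training at 6 h, Per1 (-0.20) and Clock (0.08) turned without the trend. With 1 library left out Per1 ranged from -0.37 to 1.00, Per2 from -0.28 to 0.07, Per3 from -0.56 to 0.59, Cry2 from -0.48 to 0.12, Arntl from -0.00 to 0.88 and Dbp from -0.07 to 1.62. The cause was not tested in any of these. Depth limits Cry1 and Dbp most, on 10 and 11 counts in the smallest library.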
